A study of Mus musculus with 2 samples.

Results

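The genes of MHC class I antigen presentation described here are B2m, the heavy chain genes H2-K1, H2-D1, H2-T23 and H2-M3, the peptide supply and loading genes Tap1, Tap2, Tapbp and Erap1, and the regulator Nlrc5. They were chosen by name and not by a cut on their measured levels, though earlier results of these data were known. They make up 10 of the 47643 genes in the table. All 10 had at least 5 CPM (exon reads scaled to the total of the library) in at least 1 library, as did 10407 genes in all.

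Class I molecules display peptides from the cell's own proteins to CD8+ T cells. Proteasomes cut proteins in the cytosol, the TAP transporter (Tap1 with Tap2) carries the peptides into the endoplasmic reticulum, Erap1 trims them, and tapasin (Tapbp) helps to load them onto a heavy chain bound to beta-2 microglobulin (B2m). NLRC5 is a transactivator of class I genes. Many genes of the pathway respond to interferons, and most of the pathway lies in the MHC region of chromosome 17 in the mouse.

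RNA was sequenced from bone marrow monocytes and from macrophages that had formed from bone marrow monocytes with LPA, lysophosphatidic acid, a signalling phospholipid. Both came from wild type C57BL/6 mice of 6 weeks, and 1 library was made from total RNA of each, so no comparison has a replicate and no test between the conditions was possible. No culture without LPA was analysed here, so the effects of LPA, of culture and of differentiation cannot be told apart. The sources used here do not say how the monocytes were purified, how many mice were pooled or whether both libraries came from the same mice.

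The libraries held 12473180 (monocytes) and 16726342 (macrophages) unique exon reads. The class I genes took 67724 of these reads in monocytes (0.543%) and 119338 in macrophages (0.713%). All 10 macrophage markers were past 2-fold on the higher side in macrophages, among them Gpnmb (3.29 and 15918 CPM), Apoe and Csf1r. Of 8 monocyte markers, 7 were past 2-fold on the lower side, among them Ly6c2 (1849 and 59.1 CPM), F13a1 and Plac8. Genes listed as markers of other cell types also had reads. The summed level of 10 neutrophil granule markers was 28894 CPM in monocytes and 5440 CPM in macrophages. Of these 10, 9 were lower and 1 was higher in macrophages, and Mpo, S100a9 and Ngp were the highest in monocytes. For T and NK cells the sum of 10 markers was 117 and 21.2 CPM, mostly from Nkg7 (106.9 and 1.49 CPM) and Cd4 (5.13 and 18.2 CPM), and Cd3d, Cd8a, Cd8b1 and Gzma had no reads in macrophages. For B cells the sum of 10 was 43.5 and 54.2 CPM, of which Cd22 alone gave 4.25 and 39.0 CPM, and the other 9 together, Cd79b and Cd79a among them, gave 39.3 and 15.2 CPM, with Igll1 at 0 in macrophages. For dendritic cells the sum of 10 was 272 and 657 CPM, of which Itgax alone gave 14.8 and 557.9 CPM, while Bst2 had 128 and 86.0 CPM, Flt3 had 50.4 and 1.26 CPM and Ccr9 was at 0 in macrophages. For erythroid cells the sum of 8 was 158 and 3.71 CPM, with Slc4a1, Hbb-bs, Car1 and Alas2 at 0 in macrophages, and for stromal and endothelial cells the sum of 9 was 1843 and 1013 CPM, mostly from Col1a1 and Col1a2, with Postn at 0.802 and 92.2 CPM. Whether these reads came from other cell types was not tested, nor was the part of such cells in the differences below. In bulk RNA fewer cells of a type and less RNA per cell cannot be told apart.

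The heavy chain genes resemble each other in sequence, which bears on how their reads can be assigned. The first 90 bases of coding exon 4, which encodes the membrane-proximal alpha-3 domain, are shown for 4 of them from GENCODE M21 transcripts (GRCm38). Capitals mark bases that differ from H2-K1.
H2-K1 exon, chr17:33997471-33997560, minus strand: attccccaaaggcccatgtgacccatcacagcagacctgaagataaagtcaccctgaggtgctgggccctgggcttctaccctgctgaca
H2-D1 exon, chr17:35265784-35265873, plus strand: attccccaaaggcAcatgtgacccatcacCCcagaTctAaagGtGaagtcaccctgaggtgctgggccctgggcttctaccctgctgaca
H2-T23 exon, chr17:36031008-36031097, minus strand: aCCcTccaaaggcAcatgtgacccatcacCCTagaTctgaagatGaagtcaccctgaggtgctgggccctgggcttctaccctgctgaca
H2-Q7 exon, chr17:35442267-35442356, plus strand: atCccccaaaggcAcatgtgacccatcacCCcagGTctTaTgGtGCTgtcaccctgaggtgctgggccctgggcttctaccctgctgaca
H2-D1 differed from H2-K1 at 7 of the 90 bases, H2-T23 at 9 and H2-Q7 at 12, and H2-Q6 had the same count as H2-Q7. The longest run identical to H2-K1 was 45 bases in H2-D1 and in H2-T23 and 43 bases in H2-Q7. Over whole transcripts, 9.63% of the 50-base windows of H2-K1 and 12.8% of those of H2-D1 also occurred in a transcript of another gene. The share was 0% for B2m and 0.576% for the heavy chain H2-M3, but 11.6% for Tap2, 10.7% for Erap1 and 23.2% for Tapbp. For Tapbp most of this was with Gm19412 (20.3% of its windows), and for Tap2 with Gm15821 (9.22%) and Gm20496 (2.38%). These annotated genes overlap Tapbp or Tap2, so the shared windows can be the same place annotated more than once. For Erap1 the whole share was with Cast (10.7%). H2-K1 shared most with the heavy chain genes H2-Q10 (5.18%) and H2-D1 (4.08%), which lie elsewhere on the chromosome. With 100-base windows the shares of H2-K1 and H2-D1 were 0.957% and 3.59%. The sources used here give no read length, and the authors counted a read only where its placement was unique. Reads from stretches that also occur elsewhere in the genome may therefore be missing from the counts.

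The promoters of H2-K1, H2-D1, the related heavy chain gene H2-Q7 and Tap1 are shown because these genes gave unlike ratios between the libraries. They run from 250 bases before to 50 bases after the start site (RefSeq, GRCm38.p6). Capitals mark matches on either strand to GAAA, any 2 bases and GAAA (core of the interferon-stimulated response element), TTCNNNGAA (the gamma-activated sequence), GGGNNTTCC (kappaB), CCAAT, GTTTCACTT (the class I interferon response core) and TGACG (the core of the X2 box), and matches may overlap.
H2-K1 promoter, chr17:34000298-34000597, minus strand: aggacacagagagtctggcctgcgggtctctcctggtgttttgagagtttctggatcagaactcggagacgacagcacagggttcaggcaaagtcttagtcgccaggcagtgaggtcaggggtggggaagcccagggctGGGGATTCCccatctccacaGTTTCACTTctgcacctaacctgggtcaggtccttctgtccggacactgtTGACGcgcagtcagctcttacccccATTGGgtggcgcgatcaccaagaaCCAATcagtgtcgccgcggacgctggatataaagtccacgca
H2-D1 promoter, chr17:35262844-35263143, plus strand: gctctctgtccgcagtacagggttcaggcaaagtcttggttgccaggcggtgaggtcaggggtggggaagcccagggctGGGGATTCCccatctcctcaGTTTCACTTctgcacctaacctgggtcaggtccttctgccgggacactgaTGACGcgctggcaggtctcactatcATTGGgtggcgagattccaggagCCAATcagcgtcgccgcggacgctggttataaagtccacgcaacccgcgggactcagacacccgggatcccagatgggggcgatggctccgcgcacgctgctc
H2-Q7 promoter, chr17:35438905-35439204, plus strand: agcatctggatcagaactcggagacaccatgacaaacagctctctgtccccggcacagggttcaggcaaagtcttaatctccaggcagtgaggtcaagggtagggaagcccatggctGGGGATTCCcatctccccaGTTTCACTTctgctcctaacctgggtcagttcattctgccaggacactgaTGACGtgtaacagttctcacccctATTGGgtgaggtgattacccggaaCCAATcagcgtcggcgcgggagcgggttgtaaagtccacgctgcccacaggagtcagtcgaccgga
Tap1 promoter, chr17:34187306-34187605, plus strand: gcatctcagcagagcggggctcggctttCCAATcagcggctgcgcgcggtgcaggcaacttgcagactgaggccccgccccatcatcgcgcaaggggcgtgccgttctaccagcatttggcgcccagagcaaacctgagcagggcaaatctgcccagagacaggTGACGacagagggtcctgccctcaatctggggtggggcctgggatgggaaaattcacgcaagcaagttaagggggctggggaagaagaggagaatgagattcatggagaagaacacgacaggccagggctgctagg
RefSeq promoters were found for 8 of the 10 genes. H2-K1, H2-D1 and H2-Q7 each held, in this order, the kappaB, GTTTCACTT, TGACG and CCAAT letters, and the promoters of H2-K1 and H2-D1 were identical at 87.9% of 240 aligned positions. Tap1 held CCAAT and TGACG and none of the other 4 letter patterns in this window. Its start site lies 226 bases from that of Psmb9, which is read in the opposite direction, so the 2 promoter windows share 275 bases. The letters GTTTCACTT and TGACG were added after these promoters had been seen, so their shares below are description and no test. Among the 8 promoters, GTTTCACTT was present in 3, against 0.396% of 32817 RefSeq promoters. These were H2-M3 and the closely alike H2-K1 and H2-D1. The response element core was present in 3, against 3.43%. TGACG was present in 5 (20.8% of all promoters), CCAAT in 7 (37.4%), GGGNNTTCC in 2 (5.82%) and TTCNNNGAA in 1 (8.29%). A match is a match of letters and no evidence of binding.

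Seen together, the class I genes did not move one way. Of the 10, none was at least 2-fold higher in macrophages on the log2(CPM + 1) scale, where 13.8% of all genes past 5 CPM were, and 1 was at least 2-fold lower, Tap1, where 19.9% of all genes were. The other 9 lay within 2-fold, as did 66.2% of all genes. The median log2 ratio of the 10 was -0.003, against -0.23 for all genes past 5 CPM, and 5 lay above 0 and 5 below. Centred on the median of all genes, H2-D1 passed 2-fold as well, which gives 1 higher and 1 lower. With this centring the share of higher genes among all genes past 2-fold went from 41.0% to 54.3%. Intervals given with folds are 95% intervals for counting error only, exact for a single gene and approximate for a ratio of 2 genes, and do not cover variation between cultures or mice.

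**Figure D1:**
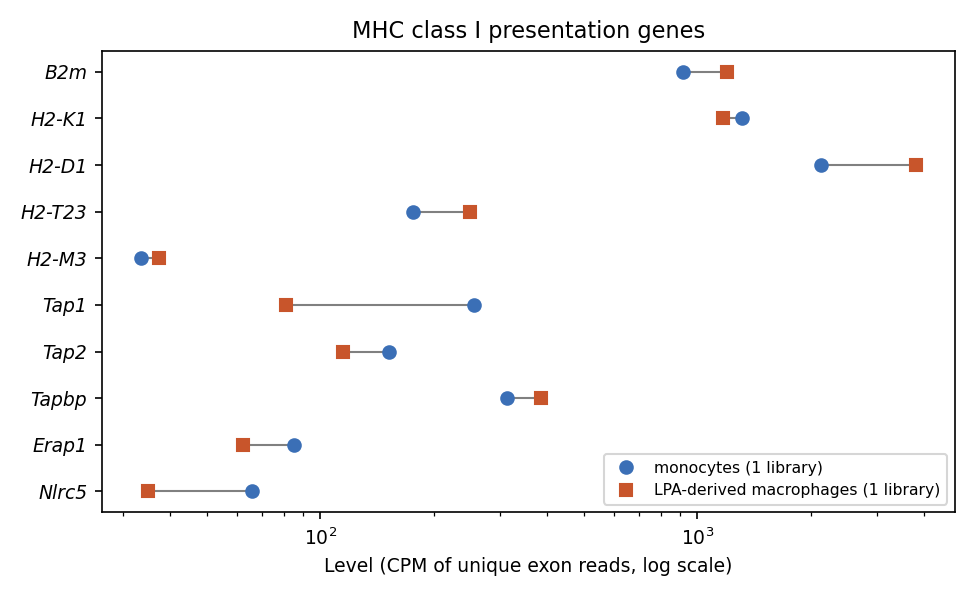
Level of each class I gene in the monocyte library (circles) and the macrophage library (squares), in CPM of unique exon reads on a log axis, 1 library each. Tap1 has the widest gap, from 256 to 80.9 CPM, and H2-D1 is the highest gene in both libraries.

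B2m, on chromosome 2 (chr2:122147686-122153083, plus strand, GRCm38), encodes the light chain that every class I heavy chain of this pathway needs. It had 11397 exon reads in monocytes and 20079 in macrophages, or 914 and 1200.4 CPM. Macrophages were 1.31-fold higher (1.28 to 1.34). Per length it ranked 33rd among all genes in monocytes, at 892 RPKM, and 23rd in macrophages, at 1229 RPKM.

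The pair of classical heavy chain genes, whose products present peptides to CD8+ T cells, went apart. H2-D1 (chr17:35262730-35267499, plus strand) had 26452 and 63537 reads, or 2121 CPM in monocytes and 3799 CPM in macrophages. It was 1.79-fold higher in macrophages (1.77 to 1.82), and reads across exon junctions gave 1.83-fold. H2-K1 (chr17:33996017-34000333, minus strand) had 16406 and 19593 reads, or 1315 and 1171 CPM. It was 1.12-fold lower in macrophages (1.10 to 1.15), and 1.05-fold lower by junction reads.

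The sign of the H2-K1 difference depended on the scaling. Centring, TMM factors, DESeq2 size factors and totals without the 20 highest genes each put it above 0, up to 0.07 on the log2 scale. H2-D1 was above 0 under those 4 as well, but exactly equal in the authors' normalized values, at 46526.5 in both libraries. Per length, the H2-D1 to H2-K1 ratio was 1.63 in monocytes and 3.28 in macrophages, a 2.01-fold change (1.96 to 2.06). A ratio of 2 genes within a library does not depend on linear scaling between libraries, but the authors' normalization is not linear: in their normalized values the ratio was 2.33 and 2.56, a 1.10-fold change.

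H2-T23 (chr17:36029773-36032855, minus strand) encodes Qa-1, a nonclassical molecule that presents leader peptides of other class I chains to NKG2 receptors. It had 2193 and 4164 reads, or 175.8 and 248.9 CPM. Macrophages were 1.42-fold higher (1.34 to 1.49). H2-M3 (chr17:37270220-37274484, plus strand), which presents N-formylated bacterial peptides, had 33.4 and 37.4 CPM from 416 and 626 reads. Its ratio of 1.12 had an interval that includes 1 (0.990 to 1.27), so on this scaling a difference was not detectable at this depth. Centred on the median of all genes, the ratio was 1.32 and its interval did not include 1 (1.16 to 1.496).

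Tap1 (chr17:34187553-34197225, plus strand) encodes one chain of the peptide transporter and differed most. It had 3191 reads in monocytes and 1354 in macrophages, or 256 and 80.9 CPM. Macrophages were 3.16-fold lower (2.96 to 3.37), 3.44-fold lower by junction reads (3.12 to 3.79) and 2.51-fold lower in the authors' normalized values. The difference stayed past 2-fold in the 9 alternative settings that can move a single gene's ratio, from -1.65 to -1.33 on the log2 scale. Per length Tap1 ranked 1326th in monocytes and 3466th in macrophages.

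Tap2 (chr17:34203527-34216321, plus strand), the other chain of the transporter, had 1895 and 1926 reads, or 152 and 115 CPM. Macrophages were 1.32-fold lower (1.24 to 1.41). The Tap1 to Tap2 ratio per length was 1.16 in monocytes and 0.485 in macrophages, 2.40-fold lower (2.19 to 2.62). Against B2m, Tap1 per length went from 0.0440 to 0.0106, 4.15-fold lower (3.88 to 4.44). Tap1 shares its neighbourhood with Psmb9, and the annotated gene bodies overlap, so reads from the overlap could be assigned to either gene or to none.

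Tapbp (chr17:33915899-33929288, plus strand) had 3892 and 6435 reads, or 312 and 385 CPM. Macrophages were 1.23-fold higher (1.18 to 1.28). Erap1 (chr13:74639872-74691875, plus strand), the aminopeptidase that trims peptides in the endoplasmic reticulum, had 85.1 and 62.2 CPM, 1.37-fold lower in macrophages (1.25 to 1.49). The 2 loading and trimming genes thus lay on opposite sides of 0. Against Tap1, Tapbp per length went from 2.03 to 7.90, 3.90-fold higher.

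Nlrc5 (chr8:94472763-94527272, plus strand), the class I transactivator, had 820 and 583 reads, or 65.7 CPM in monocytes and 34.9 CPM in macrophages. It was 1.89-fold lower in macrophages (1.69 to 2.10) and 1.98-fold lower by junction reads. None of the same 9 settings took it past 2-fold, with a range of -0.96 to -0.66 on the log2 scale. Tap1 and Nlrc5 were the 2 lowest of the 10 ratios, while the structural genes H2-D1, H2-T23 and B2m were the 3 highest.

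**Figure D2:**
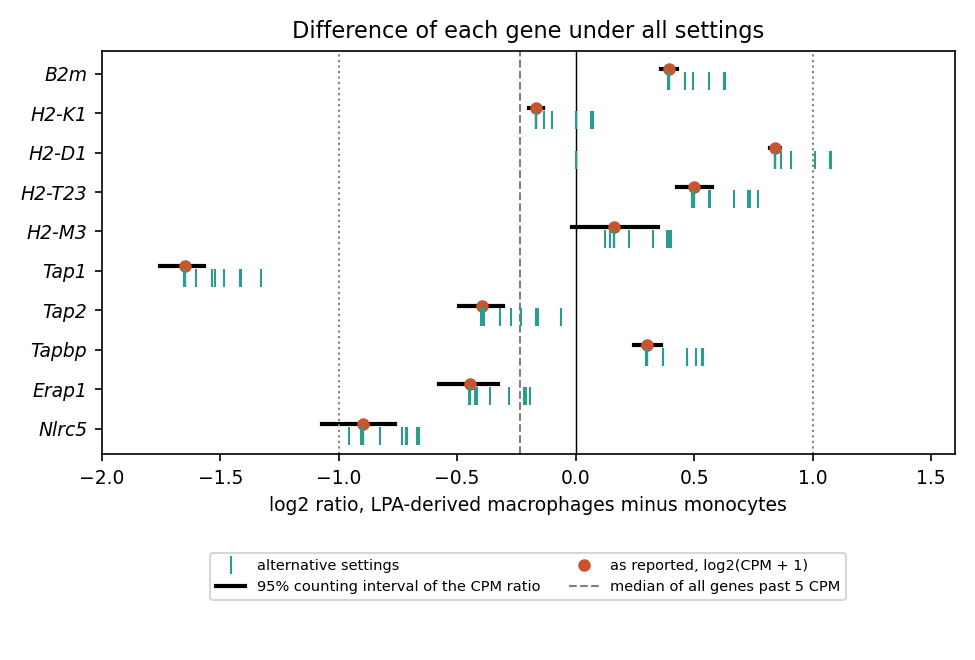
Log2 ratio of macrophages to monocytes for each class I gene: circles give log2(CPM + 1) differences, bars the 95% counting interval of the CPM ratio and vertical ticks the alternative settings, of which 9 can move a single gene's ratio, with dotted lines at 2-fold and a dashed line at the median of all genes (-0.23). Tap1 is left of the 2-fold line under every setting, and H2-K1 has ticks on both sides of 0.

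Intron reads, which come in part from unspliced RNA, were counted separately. Over all genes they made up 14.1% of gene reads in monocytes and 9.90% in macrophages. For Tap1 the share went the other way, from 2.12% (69 reads) to 4.92% (70 reads), and for Tap2 from 3.46% (68 reads) to 7.18% (149 reads). For H2-K1 it went from 7.99% to 3.54%, for H2-D1 from 5.28% to 2.44% and for Nlrc5 from 23.3% to 16.0%. Tap1 and Tap2 overlap other annotated genes, and how intron reads were assigned in such places is not known. Psmb9, which overlaps Tap1, went from 3.67% (55 reads) to 9.64% (88 reads). Tapbp, which also overlaps other genes, went from 3.66% to 3.52%. The part of overlap in these shares was not tested. Scaled by the total exon reads of each library, intron reads of Tap1 gave a ratio of 0.757 with an interval that includes 1 (0.535 to 1.07). Exon reads of Tap1 gave 0.316. Intron reads of all genes numbered 2055414 in monocytes and 1837567 in macrophages, so on this scaling their ratio was itself below 1.

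Heavy chain genes and relatives outside the 10 ran from -2.65 to 2.46 on the log2 scale, where the 10 ran from -1.65 to 0.84. Of 27 listed heavy chain genes and relatives, 23 were found and 11 passed 5 CPM, of which 4 were at least 2-fold higher (13.8% of all genes) and 4 at least 2-fold lower (19.9% of all genes), with a median log2 ratio of -0.39. The lower ones included the genes of the Q region that encode Qa-2 and its relatives. H2-Q7 had 1079 and 216 reads, or 86.5 and 12.9 CPM, 6.70-fold lower in macrophages (5.78 to 7.79). H2-Q6 had 87.0 and 14.2 CPM, 6.14-fold lower (5.33 to 7.10). The promoters of H2-Q6 and H2-Q7 were identical at 97.3% of 261 positions. Of the 50-base transcript windows, 13.9% of those of H2-Q6 occurred in H2-Q7 and 6.31% of those of H2-Q7 in H2-Q6. Reads from these stretches may be missing from both counts.

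H2-T10, whose product is a ligand of gamma-delta T cells, had 9.94 and 2.09 CPM, 4.75-fold lower (3.24 to 7.13), and 50.4% of its 50-base windows occurred in other genes. Cd1d1, which presents lipids to NKT cells, had 22.05 and 7.41 CPM, 2.97-fold lower (2.40 to 3.71). H2-Q4 was within 2-fold, at 152 and 77.7 CPM (1.95-fold lower, 1.82 to 2.10). H2-T22, at 83.6 and 66.7 CPM, and H2-T24, at 10.6 and 7.83 CPM, also lay within 2-fold. The share of 50-base windows that occurred in other genes was 36.4% for H2-Q4, 53.5% for H2-T22 and 3.17% for H2-T24.

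Among the higher genes, H2-Q10, a secreted heavy chain known from liver, had 28 and 281 reads, 7.48-fold higher in macrophages (5.07 to 11.5). Of its 50-base windows, 19.1% occurred in other genes, with 14.0% in H2-Q7 and 3.97% in H2-K1. The part of read assignment in the H2-Q10 ratio was not tested. Mr1, which presents vitamin B metabolites to MAIT cells, had 36 and 236 reads, 4.89-fold higher (3.43 to 7.15). Hfe, a regulator of iron uptake, and Fcgrt, the neonatal Fc receptor, also pair with B2m and were 2.24-fold (1.99 to 2.53) and 2.11-fold (1.92 to 2.32) higher. Below 5 CPM, H2-M2 had 0 and 21 reads, H2-Q1 had 3 and 3, H2-Q2 had 2 and 1, and H2-T3 and H2-Bl had 1 and 0.

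Summed over 13 heavy chain genes, the level per length was 1313 RPKM in monocytes and 1851 RPKM in macrophages. H2-D1 made up 52.6% of this sum in monocytes and 70.1% in macrophages, H2-K1 made up 32.2% and 21.4%, and H2-Q4, H2-Q6 and H2-Q7 together made up 7.70% and 1.89%. B2m stood in nearly the same proportion to the sum in both libraries, at 0.679 and 0.664. H2-Q7 against H2-D1 was 0.0247 in monocytes and 0.00206 in macrophages.

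**Figure D3:**
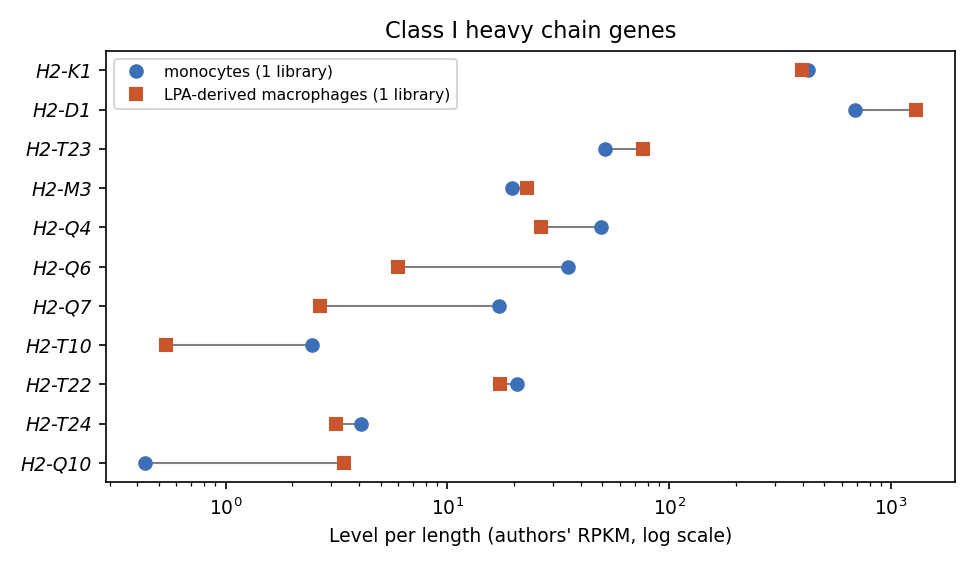
Level per length of 11 class I heavy chain genes in the monocyte library (circles) and the macrophage library (squares), in the authors' RPKM on a log axis, 1 library each. H2-D1 goes from 691 to 1297 RPKM, while H2-Q6 and H2-Q7 lie 6.14-fold and 6.70-fold lower in macrophages by CPM.

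The peptides come from proteasomes, in which the interferon-inducible subunits Psmb8, Psmb9 and Psmb10 can replace Psmb5, Psmb6 and Psmb7. All 5 genes of the immunoproteasome and its PA28 activator were lower in macrophages, with a median log2 ratio of -0.76 against -0.23 for all genes, and 2 of the 5 passed 2-fold, as did 19.9% of all genes on that side. All 5 also lay below the median of all genes. Psmb8, the chymotrypsin-like subunit, had 224 and 105 CPM, 2.13-fold lower (2.01 to 2.27). Psmb9, which can replace Psmb6 and is the neighbour of Tap1, had 116 and 49.3 CPM, 2.35-fold lower (2.15 to 2.56). Centred on the median of all genes, neither passed 2-fold.

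Psmb10, the trypsin-like subunit, was 1.47-fold lower, and the PA28 genes Psme1 and Psme2 were 1.69-fold and 1.48-fold lower. Of the constitutive partners, Psmb6 was 1.42-fold and Psmb5 1.13-fold higher and Psmb7 was 1.68-fold lower. Per length, Psmb8 to Psmb5 was 0.689 in monocytes and 0.285 in macrophages, 2.42-fold lower (2.20 to 2.65). Psmb9 to Psmb6 was 0.484 and 0.145, 3.34-fold lower (3.003 to 3.71). The third pair went the other way, as Psmb10 to Psmb7 was 2.05 and 2.34, 1.14-fold higher (1.03 to 1.27).

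**Figure D4:**
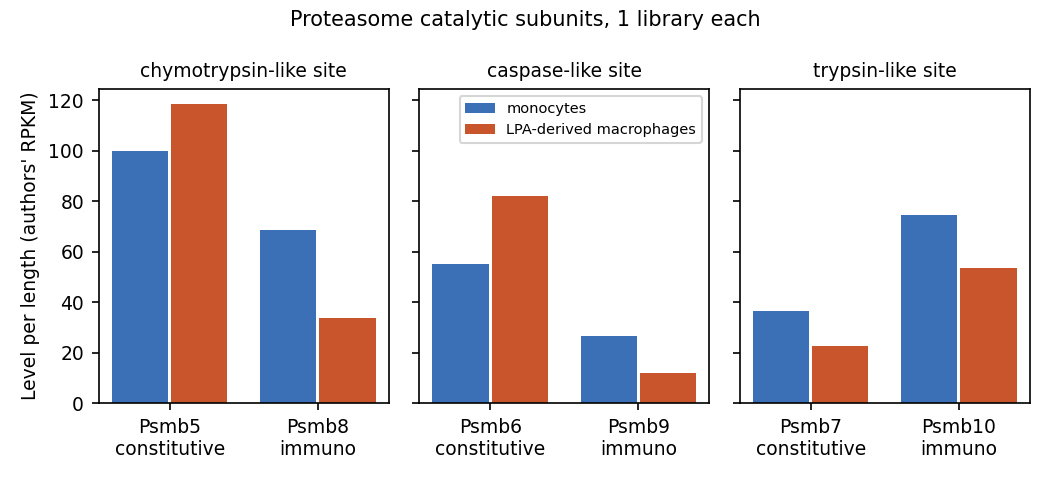
Level per length, in the authors' RPKM, of the constitutive and the interferon-inducible catalytic subunit of each proteasome site, 1 library each, monocytes left and macrophages right in each pair of bars. Panel titles name the activity of the constitutive subunit. Psmb8 and Psmb9 stand lower against their partners in macrophages (ratios 0.285 and 0.145) than in monocytes (0.689 and 0.484), and Psmb10 stands above Psmb7 in both.

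Of 10 loading and folding chaperones, 9 had ratios below 0 and 8 lay below the median of all genes. P4hb alone passed 2-fold, on the lower side (protein disulfide isomerase, 2.01-fold) and not after centring, and the median log2 ratio of the 10 was -0.47. Calreticulin (Calr) had 1230 and 998 CPM, calnexin (Canx) 592 and 564 CPM, Pdia3 (ERp57) 740 and 612 CPM and Tapbpl (TAPBPR) 19.9 and 14.0 CPM. Bcap31, which is involved in export of class I from the endoplasmic reticulum, was 1.46-fold higher and Hspa5 (BiP) was 1.66-fold lower. Uggt1, a folding sensor, was 1.54-fold lower.

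Among 9 further peptide trimming enzymes 2 passed 2-fold, both endosomal proteases and both higher, as were 13.8% of all genes. Cathepsin L (Ctsl) had 106.5 and 2905 CPM, 27.3-fold higher, and cathepsin S (Ctss) had 642 and 6761 CPM, 10.5-fold higher. Both are also known for their part in MHC class II presentation. The cytosolic enzymes lay within 2-fold, among them Blmh, 1.53-fold lower, and Nrd1, 1.31-fold lower.

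Of 17 regulators, 1 was at least 2-fold higher (13.8% of all genes) and 7 at least 2-fold lower (19.9% of all genes), with a median log2 ratio of -0.61, and 4 of the 7 stayed past 2-fold after centring. Ezh2, a histone methyltransferase, had 167 and 23.6 CPM, 7.09-fold lower (6.37 to 7.92). Nfyb, a subunit of the CCAAT-binding factor, was 2.92-fold lower, and Irf8 was 2.55-fold lower. Rfx5, a subunit of the X box complex that NLRC5 works with, had 12.4 and 5.08 CPM, 2.45-fold lower. Nfkb1, Nfyc and Irf9 were 2.48-fold, 2.32-fold and 2.06-fold lower. After centring, Ezh2, Nfyb, Irf8 and Nfkb1 stayed past 2-fold, and Rfx5, Nfyc and Irf9 did not.

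Irf1, a transcription factor that acts downstream of interferon-gamma, lay within 2-fold at 123 and 91.7 CPM. Irf2 was 1.26-fold higher. Ciita, the class II counterpart of Nlrc5, was the only regulator past 2-fold on the higher side, with 19 and 106 reads (4.16-fold, 2.54 to 7.18). It did not pass 2-fold with a pseudocount of 5 CPM or in the authors' RPKM with 1 added. Nlrc5 to Ciita per length went from 29.7 to 3.78, 7.85-fold lower (4.76 to 12.9).

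None of 7 interferon receptors and kinases passed 2-fold. Ifngr2 and Ifnar1, chains of the interferon-gamma and type I interferon receptors, were 1.99-fold and 1.92-fold higher and passed 2-fold after centring. Tyk2 and Jak2, receptor kinases, were both 1.59-fold lower. Ifngr2 to Ifngr1 per length went from 0.225 to 0.686, 3.04-fold higher (2.81 to 3.30).

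Of 15 genes linked to cross-presentation of outside antigen, 13 passed 5 CPM, 1 was at least 2-fold higher and 3 at least 2-fold lower, shares near the 13.8% and 19.9% of all genes. Rab27a was 4.204-fold lower, the translocon subunits Sec61b and Sec61g were 3.75-fold and 2.34-fold lower, and the transcription factor Batf3 was past 2-fold on the higher side, from 27 and 145 reads, but not with a pseudocount of 5 CPM. Of 9 listed receptors that bind class I or are relatives of such receptors, 7 were found and 3 passed 5 CPM. Pirb was 2.33-fold and Lilrb4a 2.34-fold higher, and Klra2 had 37.0 and 18.5 CPM. For Lilrb4a, intron reads made up 81.4% of gene reads in monocytes and 62.0% in macrophages. In the authors' normalized values Lilrb4a was only 1.21-fold higher.

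**Figure D5:**
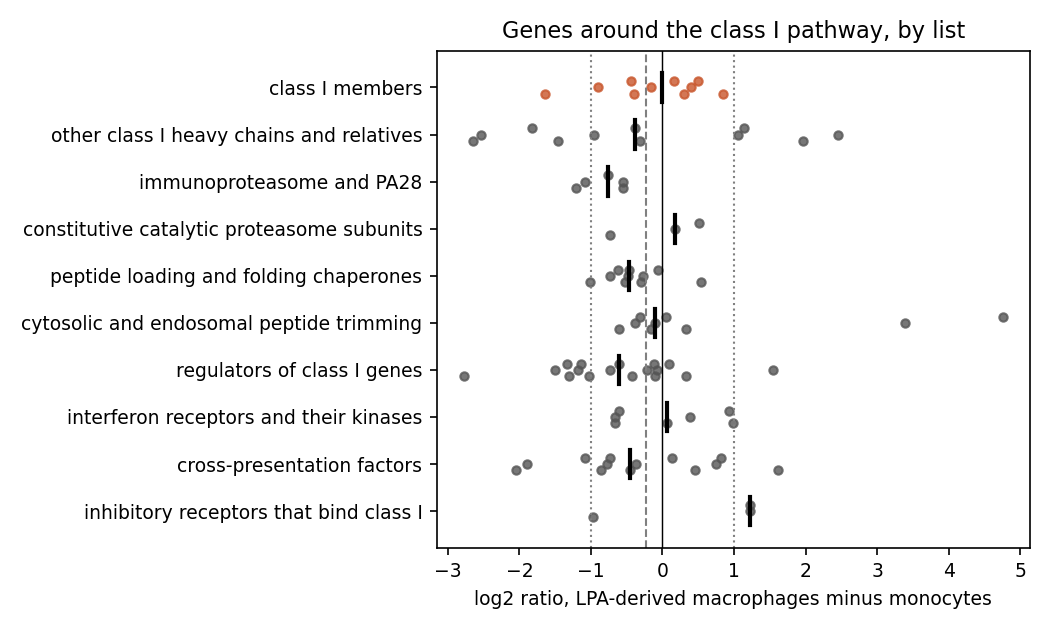
Log2(CPM + 1) ratio of macrophages to monocytes for genes past 5 CPM in each list (points) with the list's median (bar), dotted lines at 2-fold and a dashed line at the median of all genes (-0.23). The class I genes spread around 0, the immunoproteasome genes all lie left of the dashed line, and the cathepsins Ctsl and Ctss stand far to the right.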

How the data were processed

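One monocyte and 1 macrophage library were compared, each assigned from its title. The authors deposited a table of 47643 genes that, per the file headers, gives counts of unique exon, exon junction, intron and gene reads. Within each library the deposited RPKM values were proportional to exon reads per exon length, with 0 genes off by over 1% among those checked. The library total behind them was not identified and was not the exon read total used for CPM. For B2m the log2 ratio was 0.46 by RPKM and 0.39 by CPM. The deposited normalized signal has the same sorted values in both libraries. The mapper was not given in the sources used. By contrast, the build was mm9 per the submitters' processing notes, but coordinates in the table are those of GRCm38: of 47224 identifiers found in GENCODE M21, 86.3% had the same position after 1 was added to the start. Coordinates are 1-based.

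Unique exon counts were scaled to CPM by library total. Ratios are log2(CPM + 1), with a floor of 5 CPM in at least 1 library and a threshold of 2-fold. Intervals for a ratio are exact (Clopper-Pearson, conditional on the sum of the counts), and those for a ratio of 2 genes are normal on the log scale from 4 counts. They cover counting error only, since each group has 1 library. As far as the labels say, reads were not tagged by molecule, so copies of a molecule may be counted as separate reads and the intervals may be too narrow. With 1 library per group no p-value is given, and the interval routine was tested on simulated data. Named were all 10 genes, the 4 genes of each related list with the largest ratios, and a set of proteasome, chaperone, regulator and heavy chain genes whatever their values; 1 regulator covered by this rule is not reported here. The genes and lists were chosen with earlier results of these data known, and the motifs GTTTCACTT and TGACG were added after the promoters had been seen. Alternatives were other pseudocounts (0.5 and 5 CPM), floors (none, 1 and 25 CPM), centring, TMM (edgeR 4.0.16) and DESeq2 1.42.0 size factors, totals without the 20 highest genes, and the authors' RPKM and normalized values. All exon reads, and unique gene reads with introns, were also used in place of unique exon reads. Tools were Python 3.11.15, pandas 2.3.3, scipy 1.17.1, Biopython 1.88 and R 4.3.3.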

Additional observations from a re-analysis of the deposited data

How the results depend on the processing

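The counts for each pathway list and the ratios of the 10 class I genes were recomputed under 13 alternative settings, of which 9 can move a single gene's ratio. Ratios of 2 genes, summed levels, intron shares and single genes of other lists were not, except where a value is given beside them. The count of class I genes at least 2-fold lower was 1 under each of them. The count at least 2-fold higher was 0 in the main analysis and 1 (H2-D1) with centring on the median of all genes, with TMM factors, with DESeq2 size factors and with the 20 highest genes left out. The count of immunoproteasome and PA28 genes at least 2-fold lower was 2 in the main analysis, 0 with centring, TMM factors, DESeq2 size factors or the authors' normalized values, and 1 with the 20 highest genes left out. Among other heavy chains and relatives, 4 higher and 4 lower became 2 and 2 at a floor of 25 CPM, where fewer genes are counted. Over all genes past the floor, the median log2 ratio was -0.23 as reported, -0.01 with TMM factors, -0.003 with DESeq2 size factors and -0.04 in the authors' normalized values. Tap1, the 1 class I gene past 2-fold, did not change sign under any of them. No replicate could be left out, since each group has 1 library. No paired analysis was possible because the groups have 1 library each. Depth limits the genes with few reads: at these totals 3 reads are 0.241 CPM in monocytes and 0.179 CPM in macrophages.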

Other observations

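B2m and H2-T23 had no intron reads in either library despite at least 2193 exon reads in each. Among genes with at least 1000 exon reads in each library and a gene body longer than their exons, 28 had no intron read in either library, and 27 of these (96.4%) overlapped another annotated gene. Of the 2409 such genes with intron reads, 1283 (53.3%) did. The sources used here do not say how intron reads were assigned, and its part in these zeros was not tested.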
